A study of Mus musculus with 7 samples.

Results

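The antigens used to sort blood stem cells, and other surface proteins by which such cells are recognised, were followed as transcripts in stem cells of the mouse fetal liver. The set holds 10 genes: the sort antigens Kit (c-Kit), Ly6a (Sca-1) and Slamf1 (CD150), the surface genes Cd34, Procr, Tek, Esam, Cd48 and Pdzk1ip1, and Angpt1, which encodes a secreted ligand of Tek. Every probe set annotated to one of these genes alone was taken, which gave 13 of the 22626 probe sets for 9 of the 10 genes. No probe set in the platform annotation used here names Ly6a alone, so Ly6a is not analysed here.

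The study measured 7 Affymetrix arrays, 1 per sample. Of these, 3 were TFIIAα-βnc/nc samples (written TFIIA nc/nc), with both alleles of the general transcription factor subunit TFIIAα-β made non-cleavable, and 4 were wild-type samples, all at embryonic day 14.5. The TFIIA nc/nc samples held cells of 2, 2 and 4 littermates (replicates 1 to 3), and the wild-type samples cells of 1, 1, 4 and 3 embryos (replicates 1 to 4). Per the labels' protocols, both genotypes came from crosses of heterozygous parents, and no strain or Cre is named. Cells without the T cell antigens CD3, CD4 and CD8a, the B cell antigen B220, the erythroid antigen TER-119 and the myeloid antigen Gr-1 were gated, those that carried Sca-1, CD150 and c-Kit were collected, and the collected cells were sorted again. CD48 was not among the listed antibodies.

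Kit is a tyrosine kinase receptor whose ligand, stem cell factor (Kitl), sustains blood stem cells and their progenitors. Tek, or Tie2, is a receptor kinase of stem cells and of endothelium that binds the angiopoietins. Slamf1 and Cd48 belong to the SLAM family, immune receptors whose combination on the cell surface separates stem cells from multipotent progenitors in the mouse. Procr (the endothelial protein C receptor), Esam (an adhesion molecule of cell junctions) and Cd34 (a sialomucin) are carried by fetal stem cells and by endothelium alike. Pdzk1ip1, also called MAP17, is a small membrane protein whose transcript is abundant in stem cells.

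Of the promoters in RefSeq's table (build GRCm38.p6, 1 promoter per gene), 7 members matched: Kit, Slamf1, Cd34, Procr, Tek, Cd48 and Pdzk1ip1. The 250 bases before the start are shown for Pdzk1ip1 and Procr, the surface genes with the lowest TFIIA nc/nc levels relative to wild type, and for Tek, the gene with the highest. They lie on the plus strand at chr4:115088458-115088707 for Pdzk1ip1, chr2:155750967-155751216 for Procr and chr4:94739039-94739288 for Tek. Capitals mark matches to the E-box CANNTG, the motif of basic helix-loop-helix factors such as Tal1, which reads alike on both strands.
Pdzk1ip1: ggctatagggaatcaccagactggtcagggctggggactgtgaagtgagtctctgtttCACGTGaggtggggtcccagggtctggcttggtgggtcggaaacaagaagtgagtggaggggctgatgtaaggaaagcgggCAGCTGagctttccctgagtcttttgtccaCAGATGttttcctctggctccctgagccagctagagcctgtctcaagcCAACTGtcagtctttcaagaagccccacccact
Procr: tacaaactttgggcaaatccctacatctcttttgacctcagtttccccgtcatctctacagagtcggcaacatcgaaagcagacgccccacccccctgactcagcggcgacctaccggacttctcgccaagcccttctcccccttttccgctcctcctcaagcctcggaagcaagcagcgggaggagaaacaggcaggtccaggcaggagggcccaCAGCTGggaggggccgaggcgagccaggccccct
Tek: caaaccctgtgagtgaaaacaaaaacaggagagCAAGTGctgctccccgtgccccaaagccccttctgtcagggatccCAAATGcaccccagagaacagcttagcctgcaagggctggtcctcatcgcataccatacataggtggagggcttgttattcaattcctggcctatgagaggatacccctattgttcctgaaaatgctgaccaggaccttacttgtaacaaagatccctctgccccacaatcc

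The Pdzk1ip1 promoter held 4 E-boxes, a number that 3.86% of the 27025 promoters of this length reach or exceed. The Tek promoter held 2, and those of Procr, Slamf1 and Cd48 held 1 each. Those of Kit and Cd34 held 0, and 66.0% of all promoters hold at least 1. TFIIA steadies TBP on the TATA box, and the letters TATAAA, on either strand, were in 0 of the 7 member promoters and in 13.0% of all promoters. The GATA letters GATAA, on either strand, were in the Slamf1 promoter alone (23.0% of all promoters), the RUNX letters TGTGGT in the Cd48 promoter alone (14.2%), and the ETS letters AGGAAG in those of Kit, Slamf1 and Cd34 (29.2%). In the Cd48 promoter the E-box (CATGTG) and the RUNX letters overlap. None of these letters marks a tested binding site.

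Transcripts of the sort antigens Kit and Slamf1 were present in all 7 samples. Kit (probe set 1452514_a_at) and Slamf1 (1425570_at) lay above the array median, at log2 3.69 to 3.82, on every array. Of 7 measured genes of the lineage antigens, 6 (Cd3d, Cd3e, Cd3g, Cd4, Cd8a and Cd8b1) lay below the median on all 7 arrays. The seventh, Ptprc, lay above it: it encodes CD45 of all white blood cells, of which B220 is an isoform that this probe set does not separate. Ly6g and Ly6c1 are not analysed here.

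Endothelial transcripts set 3 arrays apart. The mean log2 level of 13 endothelial genes, a list that holds no member, stood at 7.11 and 7.59 for the first and second TFIIA nc/nc replicates, against 7.32 in wild-type replicate 1. It was 3.40 in TFIIA nc/nc replicate 3, against 3.19 to 3.38 in wild-type replicates 2 to 4. Each of the 13 genes, the sinusoid genes Lyve1 and Stab2 and the junction cadherin Cdh5 among them, was higher in each of the first 3 arrays than in any of the other 4. Several members are also endothelial genes, so these levels are given beside the results, and the part they have in a result was not tested beyond the values given there. In bulk samples, fewer cells of a type and less RNA per cell cannot be told apart.

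Transcripts of other cells of the fetal liver were also measured, and 0 genes of these lists passed the test. The mean log2 level of 14 macrophage genes was 3.48, 4.39 and 5.06 in TFIIA nc/nc, against 3.98, 4.34, 2.87 and 3.47 in wild type. That of 12 hepatoblast and hepatocyte genes was 4.58, 4.92 and 3.61 in TFIIA nc/nc, against 4.22, 3.63, 3.50 and 3.69 in wild type, and was highest in the arrays with high endothelial transcripts. The differences of single genes had a median of 0.44 for the macrophage list (13 of 14 higher), 0.42 for the hepatocyte list (10 of 12 higher), 0.03 for 11 megakaryocyte genes (6 higher), −0.04 for 10 erythroid genes (5 higher), −0.06 for 9 mast cell genes (4 higher) and 1.78 for the endothelial list (13 of 13 higher). The mean log2 level of the erythroid list was 3.46, 3.81 and 4.03 in TFIIA nc/nc, against 4.16, 3.50, 3.24 and 3.52 in wild type. Its gene Hbb-y, chosen after its values were seen, read 2.46, 3.15 and 7.93 in TFIIA nc/nc, against 4.63, 3.60, 2.64 and 3.59 in wild type. The mean of 3 Y-linked genes ran from 1.54 to 5.25 in TFIIA nc/nc and from 3.61 to 5.68 in wild type, so the samples differed in sex makeup.

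No member differed between the genotypes past the threshold of an adjusted p of 0.05. Differences are log2 levels of TFIIA nc/nc less those of wild type, from limma fitted across all 22626 probe sets, with Benjamini-Hochberg adjustment over all of them. The adjusted p of the 13 member probe sets was 0.984 or 0.985. Over the whole array 1 of 22626 probe sets passed (0.00442%), a probe set of Galc, which is no member. At an unadjusted limma p under 0.05, 4 of the 13 (30.8%) were lower in TFIIA nc/nc, the 2 probe sets of Pdzk1ip1 and those of Procr and Angpt1, and 0 were higher. Over all probe sets 4.00% had such a p, 2.09% with lower and 1.91% with higher values. Both Pdzk1ip1 probe sets report on 1 gene, and Pdzk1ip1 was taken into the set with its earlier result known, so the count of 4 is not independent evidence. The median difference of the 13 was −0.13, with 9 of 13 (69.2%) below 0, beside a median of −0.01 and 51.9% below 0 over all probe sets.

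**Figure D1:**
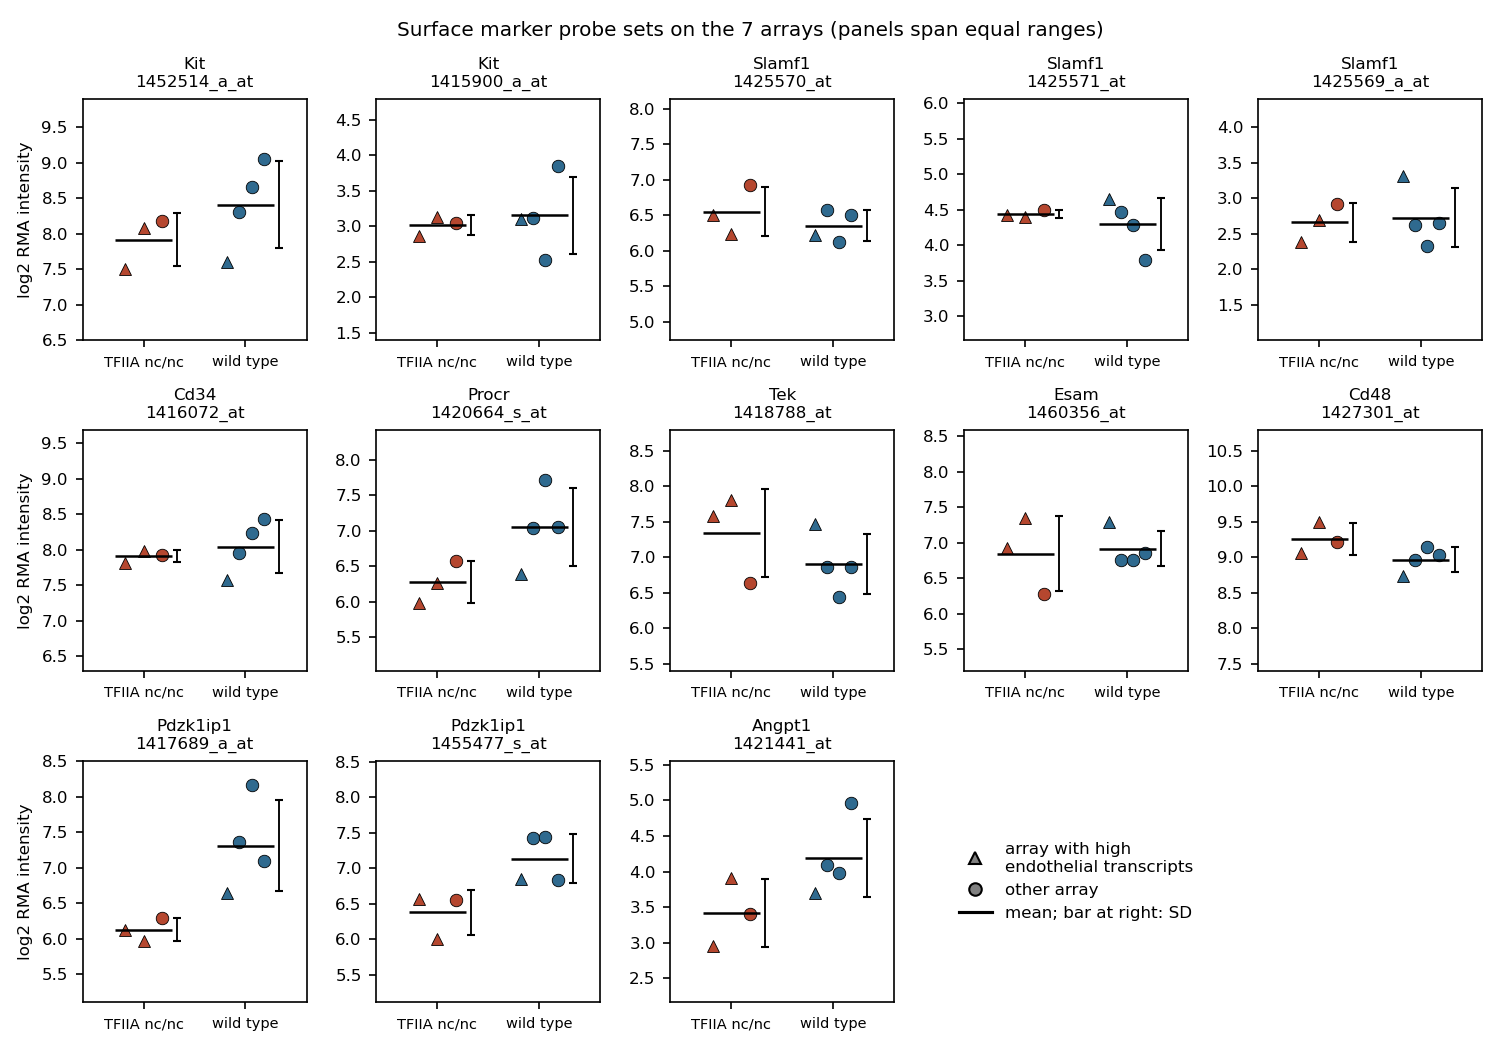
Log2 RMA intensity of the 13 member probe sets on each array, TFIIA nc/nc (3 arrays) left of wild type (4 arrays), with the mean as a line and the SD as a bar at its right. Triangles are the 3 arrays with high endothelial transcripts. The 2 Pdzk1ip1 panels are the ones in which all TFIIA nc/nc points lie below all wild-type points.

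Of the sort antigens, Kit had lower mean values in TFIIA nc/nc and Slamf1 slightly higher ones, and neither passed the test. Kit (1452514_a_at) had log2 levels of 7.50, 8.08 and 8.18 in TFIIA nc/nc, against 7.61, 8.31, 8.66 and 9.06 in wild type. The groups overlapped through wild-type replicate 1, which was close to the lowest value, TFIIA nc/nc replicate 1. The means were 7.92 ± 0.36 in the 3 TFIIA nc/nc samples and 8.41 ± 0.61 in the 4 wild-type samples (SD), a difference of −0.49 (SE 0.32, 95% interval −1.22 to 0.23, limma adjusted p = 0.984). Leaving out 1 array gave −0.76 (without wild-type replicate 1) to −0.28 (without wild-type replicate 4 or TFIIA nc/nc replicate 1). Samples of 2 or more embryos gave −0.94 (limma adjusted p = 0.244), from the 3 TFIIA nc/nc samples and wild-type replicates 3 and 4. Both of those wild-type arrays had low endothelial transcripts, as had only replicate 3 of TFIIA nc/nc. The 3 arrays with high endothelial transcripts, at 7.50 to 8.08, were the 3 lowest for Kit. The difference was 0.18 among those 3 arrays (2 TFIIA nc/nc samples against 1 wild-type sample) and −0.50 among the other 4 (1 against 3). Adjusted for the endothelial mean, it was −0.18 (SE 0.27, limma adjusted p = 0.97). A dimmer Kit probe set (1415900_a_at) read 2.86, 3.13 and 3.05 in TFIIA nc/nc, against 3.10, 3.12, 2.53 and 3.85 in wild type. It averaged 3.02 ± 0.14 in the 3 TFIIA nc/nc samples and 3.15 ± 0.54 in the 4 wild-type samples (SD), and lay above the array median on only 1 of 7 arrays.

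Slamf1 (1425570_at) had log2 levels of 6.51, 6.23 and 6.92 in TFIIA nc/nc, against 6.22, 6.57, 6.12 and 6.50 in wild type. The highest value was TFIIA nc/nc replicate 3, and the other TFIIA nc/nc values lay among the wild-type ones. The difference was 0.20 (SE 0.20, 95% interval −0.25 to 0.65). It was 0.02 without TFIIA nc/nc replicate 3, the highest sample, and 0.36 without TFIIA nc/nc replicate 2. In the 4 arrays with low endothelial transcripts it was 0.52, where replicate 3 was the only TFIIA nc/nc sample. The probe set 1425571_at, at 4.42, 4.40 and 4.50 in TFIIA nc/nc and 4.65, 4.47, 4.28 and 3.79 in wild type, differed by 0.14 (SE 0.20). The third, 1425569_a_at, read 2.38, 2.69 and 2.92 in TFIIA nc/nc, against 3.32, 2.62, 2.33 and 2.65 in wild type. It lay below the array median on every array and differed by −0.07 (SE 0.24). The arrays with high endothelial transcripts did not stand together for Slamf1.

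The lowest difference of the 13 probe sets, −1.18, was that of a Pdzk1ip1 probe set, while the brighter Pdzk1ip1 probe set, at −0.76, was close to Procr (−0.77) and Angpt1 (−0.76). The Pdzk1ip1 probe set 1417689_a_at read 6.12, 5.97 and 6.30 in TFIIA nc/nc, against 6.64, 7.36, 8.16 and 7.09 in wild type. The probe set 1455477_s_at read 6.57, 6.01 and 6.56 in TFIIA nc/nc, against 6.85, 7.42, 7.44 and 6.83 in wild type. In both, all 3 TFIIA nc/nc samples lay below all 4 wild-type samples, which held for 2 of the 13 member probe sets (15.4%) and for 2.81% of all probe sets. Groups were apart in the other direction for 0 of the 13 and for 2.85% of all, and in either direction for 5.65% of all. The means of 1417689_a_at were 6.13 ± 0.16 in the 3 TFIIA nc/nc samples and 7.31 ± 0.64 in the 4 wild-type samples (SD), a 2.26-fold lower signal (difference −1.18, SE 0.31, unadjusted p = 0.004, limma adjusted p = 0.984). Those of 1455477_s_at were 6.38 ± 0.32 in the 3 TFIIA nc/nc samples and 7.13 ± 0.34 in the 4 wild-type samples (SD), 1.69-fold lower (difference −0.76, SE 0.23, unadjusted p = 0.00822, limma adjusted p = 0.984). The direction was the same within both sets of arrays. Among the arrays with high endothelial transcripts 1417689_a_at averaged 6.05 in 2 TFIIA nc/nc samples and read 6.64 in 1 wild-type sample, and among the others it read 6.30 in 1 TFIIA nc/nc sample and averaged 7.54 in 3 wild-type samples. The macrophage mean given above was lowest in wild-type replicate 3, which had the highest Pdzk1ip1 level, and its part in the difference was not tested. Adjusted for the endothelial mean, the differences were −0.93 (SE 0.29) and −0.61 (SE 0.23), at limma adjusted p = 0.956 each. By Affymetrix's naming a probe set ending in _s_at may also read transcripts of other genes, and one ending in _a_at reads several transcripts of its gene.

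Procr, the receptor of activated protein C and a marker of the most potent stem cells, also had lower means without passing the test. It read 5.99, 6.26 and 6.58 in TFIIA nc/nc, against 6.39, 7.04, 7.72 and 7.06 in wild type. All 3 TFIIA nc/nc samples lay below the wild-type mean, and the groups overlapped because wild-type replicate 1 lay below TFIIA nc/nc replicate 3. The means were 6.28 ± 0.30 in the 3 TFIIA nc/nc samples and 7.05 ± 0.54 in the 4 wild-type samples (SD), 1.71-fold lower (difference −0.77, SE 0.29, unadjusted p = 0.0246, limma adjusted p = 0.984). The 3 arrays with high endothelial transcripts were the 3 lowest for Procr, at 5.99 to 6.39, although Procr is also an endothelial gene. Adjusted for the endothelial mean, the difference was −0.49 (SE 0.24, unadjusted p = 0.0722, limma adjusted p = 0.956). Its probe set also ends in _s_at.

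**Figure D2:**
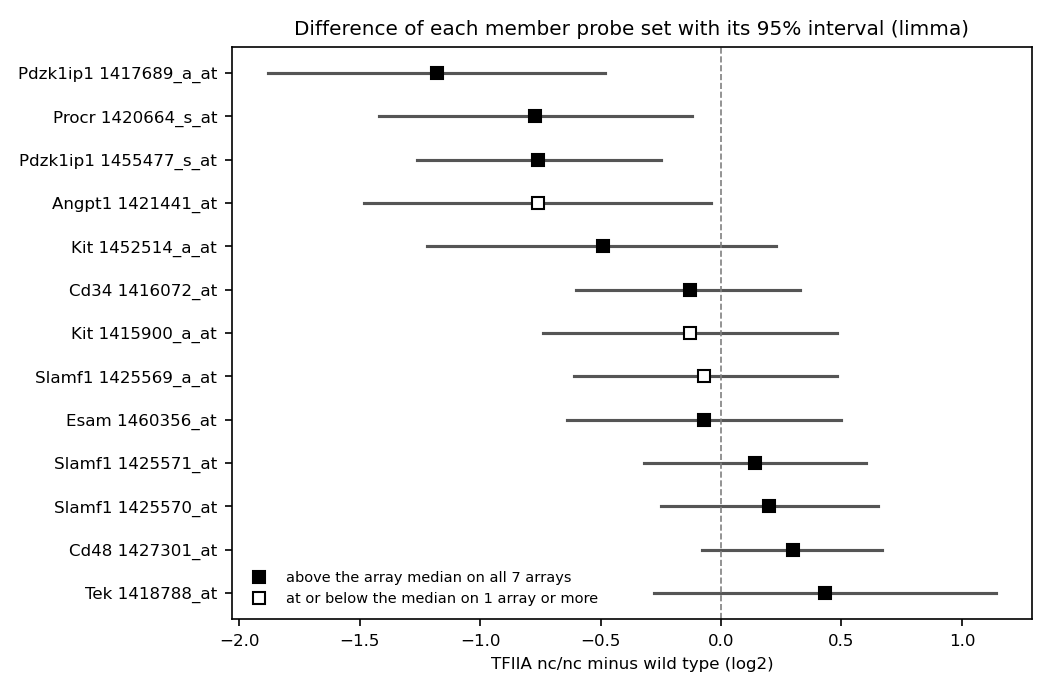
Difference between TFIIA nc/nc and wild type (log2) for each member probe set, as a square with its 95% interval from limma, ordered from the lowest. Open squares are probe sets that did not lie above the median on every array. The intervals of Pdzk1ip1, Procr and Angpt1 end below 0 and those of the other 9 probe sets include 0.

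Tek and Angpt1, receptor and ligand, had opposite differences, neither past the threshold. Tek read 7.58, 7.80 and 6.63 in TFIIA nc/nc, against 7.47, 6.86, 6.44 and 6.86 in wild type. The high values were the 3 arrays with high endothelial transcripts, at 7.47 to 7.80 against 6.44 to 6.86 in the other 4. The genotype difference was 0.43 (SE 0.31, limma adjusted p = 0.984), and 0.04 (SE 0.19, limma adjusted p = 0.985) with the endothelial mean as a covariate. In the 4 other arrays it was −0.09 (1 TFIIA nc/nc sample against 3 wild-type samples). Leaving out 1 array gave 0.19 (without TFIIA nc/nc replicate 2) to 0.78 (without TFIIA nc/nc replicate 3, limma adjusted p = 0.9997).

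Angpt1 read 2.95, 3.91 and 3.40 in TFIIA nc/nc, against 3.70, 4.09, 3.98 and 4.97 in wild type. It was dim, above the array median on only 4 of 7 arrays. The highest value was wild-type replicate 4, and TFIIA nc/nc replicate 2 lay within the wild-type range. The difference was −0.76 (SE 0.32, unadjusted p = 0.04, limma adjusted p = 0.984), and −0.50 without wild-type replicate 4. With 16 added to the values before log2, which damps differences among dim probe sets, it was −0.36 (SE 0.18).

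Esam, like Tek, was higher in the 3 arrays with high endothelial transcripts, at 6.92 to 7.34, than in the other 4, at 6.28 to 6.86. It read 6.92, 7.34 and 6.28 in TFIIA nc/nc, against 7.29, 6.76, 6.76 and 6.86 in wild type. TFIIA nc/nc held both the highest and the lowest value, and the difference was −0.07 (SE 0.25, 95% interval −0.64 to 0.50). Adjusted for the endothelial mean, it was −0.37 (SE 0.18, limma adjusted p = 0.956). In the 4 arrays with low endothelial transcripts it was −0.51 (1 TFIIA nc/nc sample against 3 wild-type samples). Leaving out 1 array gave −0.32 (without TFIIA nc/nc replicate 2) to 0.21 (without TFIIA nc/nc replicate 3). Of the 9 genes, Tek and Esam thus lay wholly higher, and Kit and Procr wholly lower, in the arrays with high endothelial transcripts. Over all probe sets 4.90% lay wholly higher and 4.33% wholly lower in those arrays.

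**Figure D3:**
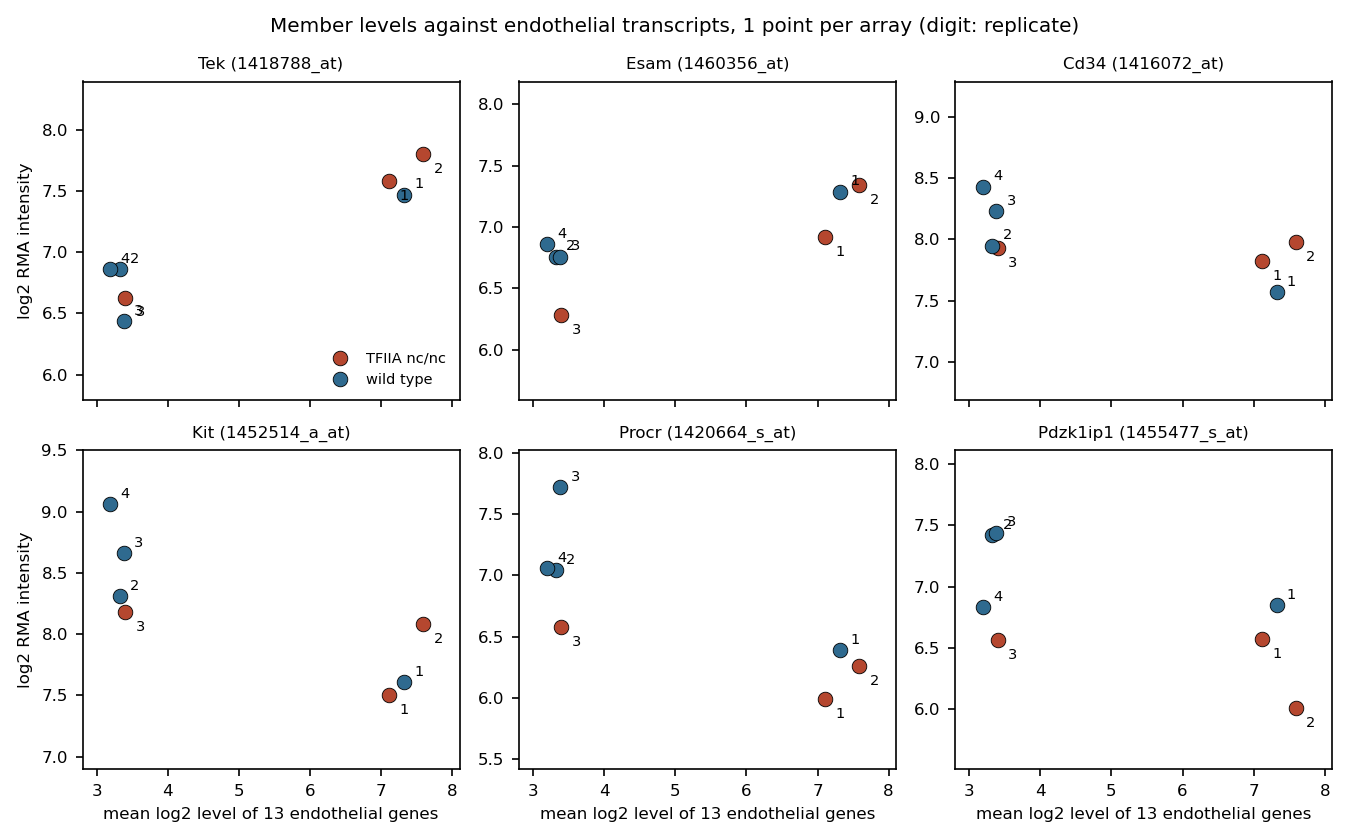
Log2 RMA intensity of 6 member probe sets against the mean log2 level of 13 endothelial genes, 1 point per array, labelled with its replicate number. The arrays form 2 clusters on the x axis, at 3.19 to 3.40 and 7.11 to 7.59. Tek and Esam are higher in the right cluster, Kit and Procr lower, and Cd34 and Pdzk1ip1 overlap between the clusters.

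Neither Cd34 nor Cd48 passed the test. Cd34 read 7.82, 7.98 and 7.93 in TFIIA nc/nc, against 7.57, 7.95, 8.23 and 8.43 in wild type. The TFIIA nc/nc values lay inside the wild-type range, with a difference of −0.13 (SE 0.21, 95% interval −0.60 to 0.33). It was −0.29 without wild-type replicate 1, −0.0049 without wild-type replicate 4, and −0.42 with samples of 2 or more embryos (limma adjusted p = 0.426). Of wild type that last setting kept replicates 3 and 4 alone, both with low endothelial transcripts. Cd48, a ligand of CD244 that marks progenitors, read 9.06, 9.50 and 9.22 in TFIIA nc/nc, against 8.73, 8.96, 9.14 and 9.03 in wild type. All 3 TFIIA nc/nc samples lay above the wild-type mean of 8.97 ± 0.18 (SD, n = 4), at a mean of 9.26 ± 0.22 (SD, n = 3), and the groups overlapped. The difference was 0.30 (SE 0.17, 95% interval −0.08 to 0.67, limma adjusted p = 0.984), and 0.18 without TFIIA nc/nc replicate 2.

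Each probe set was also compared alone by an exact permutation test, 2-sided, in which the 7 arrays can be divided in 35 ways and no p under 0.0286 can arise. The lowest values were 0.0286 and 0.0571 for the Pdzk1ip1 probe sets 1455477_s_at and 1417689_a_at and 0.0857 for Procr. These p-values are not adjusted. The other 10 member probe sets had an exact permutation p of 0.114 to 0.943.

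Ligands and partners of the members did not pass either. Of 31 listed genes 29 were measured. In TFIIA nc/nc 20 had higher means and 9 had lower ones (31.0%, beside 51.9% of 12393 genes). The median difference was 0.12, beside −0.01 over the same 12393 genes. Of the 29, 15 lay below the array median on all 7 arrays. Kitl, the ligand of Kit, read 4.94, 4.54 and 2.00 in TFIIA nc/nc, against 4.09, 2.18, 2.10 and 2.00 in wild type. It lay above the array median in the 3 arrays with high endothelial transcripts alone. Ptprb, an endothelial phosphatase that acts on Tek, read 6.19, 6.46 and 4.55 in TFIIA nc/nc, against 6.82, 4.03, 4.12 and 3.50 in wild type. It followed the same arrays. Angpt2, another angiopoietin, stayed below the array median everywhere, at 2.24 in TFIIA nc/nc and 2.34 in wild type on average. The partners with the smallest p were Selp (P-selectin), at −0.61 (SE 0.19), F2r (the thrombin receptor, which Procr-bound protein C cleaves), at 0.60 (SE 0.25), and the kinase Fyn of SLAM signalling, at 0.51 (SE 0.23). All 3 had a limma adjusted p of 0.984, and Kitl, Ptprb and Angpt2 were chosen after their values were seen.

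Other surface genes of stem cells and progenitors gave no call. Of 24 measured stem cell surface genes 12 were higher and 12 lower, with a median of 0.02. Cxcr4, the homing receptor for Cxcl12, read 3.46, 3.93 and 4.02 in TFIIA nc/nc, against 4.35, 4.75, 4.86 and 5.40 in wild type. All TFIIA nc/nc samples lay below all wild-type samples (difference −1.04, SE 0.25, unadjusted p = 0.00242, limma adjusted p = 0.984). This held for 2 of the 24 genes, Cxcr4 and Itgb3, and for 2.81% of all probe sets. Cd27, a TNF receptor family member, differed by −0.76 (SE 0.27) and Itga6, the integrin α6 chain, by 0.36 (SE 0.18). Of 11 measured progenitor surface genes 5 were higher and 6 lower, with a median of −0.09. Among them Flt3, the receptor of multipotent progenitors, differed by −0.77 (SE 0.24), with groups that did not overlap. This held for 1 of the 11, and in that direction for 2.81% of all probe sets. Csf3r differed by −0.23 (SE 0.21) and Csf1r by 0.45 (SE 0.42). Of the 7 lineage genes 3 were higher and 4 lower, from −0.21 for Ptprc to 0.15 for Cd3g.

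**Figure D4:**
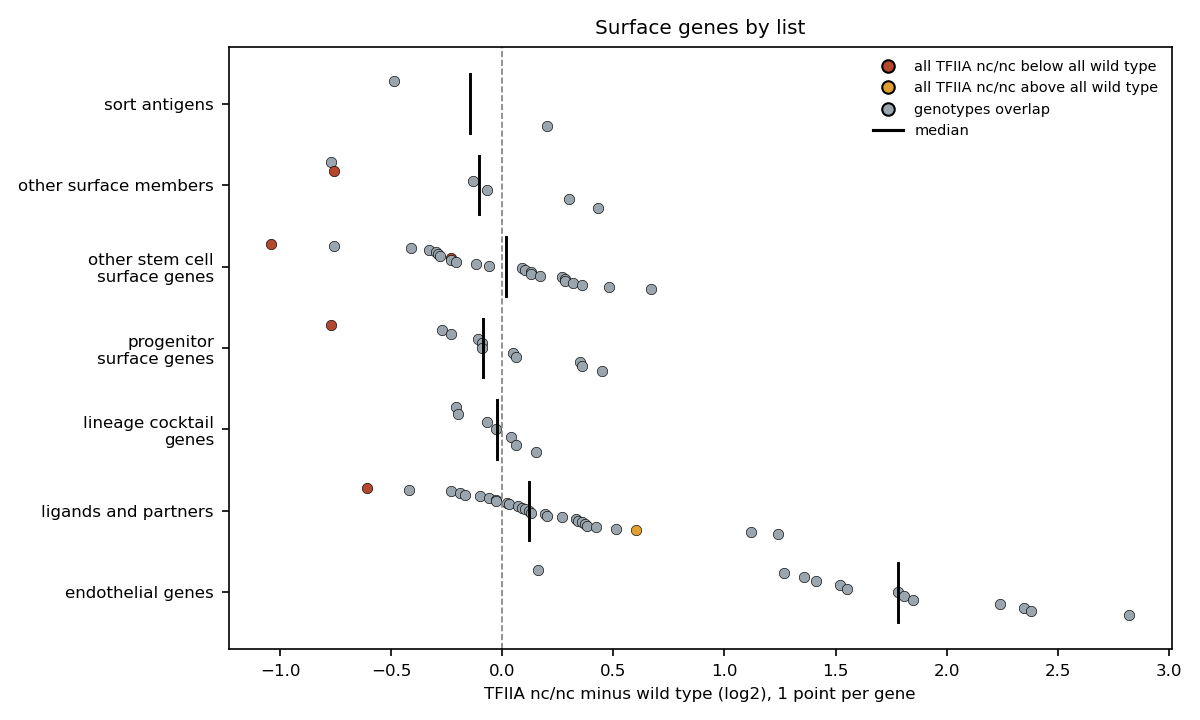
Difference between TFIIA nc/nc and wild type (log2) of single genes in 7 lists, by each gene's brightest probe set, with the list median as a line. The members scatter on both sides of 0, as the other surface lists do, while the 13 endothelial genes lie from 0.16 to 2.82 with genotypes that overlap.

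Members were also set beside all genes with a mean log2 level of at least 5 by the root mean square difference between profiles over the 7 arrays, after each gene's own mean was taken off. This describes likeness in 7 arrays and carries no test. The nearest profiles to Kit were those of B2m (0.08 log2 units), Babam2 (0.095) and Stat3 (0.115), where the median over 5349 genes was 0.511. This median was 0.292 to 0.299 for Cd48, Slamf1 and Cd34, whose profiles were the flattest, 0.418 for Esam, 0.529 for Pdzk1ip1, 0.537 for Tek and 0.589 for Angpt1. The nearest to Procr were Cd27 (0.111), Lyz2 (0.126) and Saysd1 (0.145), at a median of 0.577. Cd27 and Procr are thus alike both in the lower TFIIA nc/nc values and in the order of the wild-type samples 1 and 3, the lowest and highest. Both also lay wholly lower in the 3 arrays with high endothelial transcripts, as did Lyz2, Saysd1 and the 3 genes nearest to Kit. The nearest to Tek were Cav2 (0.088), Pls3 (0.103) and Capn2 (0.123), and each of these was higher in the 3 arrays with high endothelial transcripts. The nearest to Pdzk1ip1 were Ypel3 (0.177), Frg1 (0.185) and Mgst1 (0.201), and to Angpt1 Irf9 (0.182), Parp12 (0.227) and Trp53inp1 (0.245). Slamf1 lay nearest to Trmt1l (0.081), Timm29 (0.085) and Adprm (0.095), Cd34 to Cbx1 (0.047), Adam10 (0.052) and Arhgap45 (0.063), Cd48 to Ranbp10 (0.091), Tollip (0.097) and Mtch2 (0.098), and Esam to Adgrg3 (0.166), Stx2 (0.17) and Gstk1 (0.182). Among the members themselves the closest pairs were Cd34 and Cd48 (0.273), Kit and Cd34 (0.286) and Tek and Esam (0.298). For Cd34 and Cd48 that is hardly nearer than their median distance to all genes. The farthest were Procr and Tek (0.986).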

How the data were processed

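RNA of sorted stem cells was measured on 1-colour Affymetrix arrays, 3 of TFIIA nc/nc and 4 of wild-type samples. The authors deposited 1 RMA intensity per probe set and array. The submitters' processing notes name Affymetrix Expression Console, and its version is not given in the sources used here. The intensities lay on a linear scale, so log2 was taken with no offset. RMA brings arrays to like distributions and gives every probe set a value, and it tends to understate differences of dim probe sets. Scanner files and detection calls were not used here, no batch is named, and the number of arrays limits the precision. The labels call the samples biological replicates.

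Of 22690 probe sets 64 controls were left out. Symbols came from the platform annotation, updated by Entrez identifier through RefSeq's GRCm38.p6 table, which matched 12369 of 12393 genes. The annotation gives 1 symbol for 20380 probe sets, several for 691 and none for 1555. Genes other than members were read from their brightest probe set.

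All 22626 probe sets were fitted in R 4.3.3 with limma 3.58.1 (lmFit, eBayes), with no covariate, and adjusted by Benjamini-Hochberg over all of them. In 20 simulated data sets of 22626 probe sets with 200 changed ones each, the fit recovered 62.85% of changes of 1 log2 unit and 98.44% of changes of 2, with 8.05 false calls per set. The simulated noise was independent between probe sets, so these shares do not give the power in the real arrays. Single values were also compared by an exact permutation test (scipy 1.17.1). Alternatives covered the probe sets entering the fit, filters, an offset, normalization, moderation, array weights, covariates, sample subsets, the replicate number and leaving out each array. Members and lists were chosen with earlier results of these data known. All member probe sets were reported. Of each other list the members past the threshold, otherwise up to 3 of smallest p, were named. Likeness was the 3 genes with the smallest root mean square difference between centred profiles. Others are said to be chosen after their values were seen. Plots were drawn with matplotlib 3.10.9.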

Additional observations from a re-analysis of the deposited data

Results flagged for a closer look

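Of 46 wild-type groups of 4 samples examined, 1 for each member probe set and for each leading gene of the other lists, 4 held a sample far from the other 3. Chance alone gives about 1 in 20 for independent groups. These 46 share the same 4 arrays and include genes that vary together, so their count cannot be set against that rate. All 4 flagged samples were wild-type replicate 1. Its log2 level was 6.99 for the sinusoid receptor Stab2, against 2.23 to 2.68 in the other wild-type samples, and 6.53 for the junction cadherin Cdh5, against 2.55 to 2.94. It was 6.39 for Clec1b, a receptor of platelets, against 2.37 to 2.81. It was 5.81 for the keratin Krt18, against 6.45 to 6.57. No member probe set was among the 4, although wild-type replicate 1 had the lowest wild-type value for Kit (7.61), Cd34 (7.57), Procr (6.39), Cd48 (8.73), the Pdzk1ip1 probe set 1417689_a_at (6.64) and Angpt1 (3.70).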

How the results depend on the processing

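Across 23 other settings 0 member probe sets passed the threshold. The smallest limma adjusted p of a member was 0.163, for Pdzk1ip1 1417689_a_at with samples of 2 or more embryos. Of wild type that setting kept replicates 3 and 4 alone, both with low endothelial transcripts, so genotype and these transcripts were partly aligned in it. Of the 13 probe sets 7 kept their direction in every setting, those of Pdzk1ip1, Procr and Angpt1, the bright ones of Kit and Slamf1, and Cd48. The count of members at an unadjusted p under 0.05, 4 in all, was 6 with embryo number as a covariate, 6 with samples of 2 or more embryos, 5 with array weights, 2 without moderation, 2 with the endothelial mean as a covariate, 1 in the 4 arrays of low endothelial transcripts, and 2 to 5 when 1 array was left out, with 2 without TFIIA nc/nc replicate 1 and 5 without wild-type replicate 1. The count over all probe sets was 0 among probe sets of log2 6 or more in at least 3 arrays, 0 without moderation, 0 in the 4 arrays, 14 with samples of 2 or more embryos, and 1 to 2 when 1 array was left out, with 2 without wild-type replicate 3. Differences that turned direction were 0.017 for Cd34 with the endothelial covariate, −0.0923 for Tek in the 4 arrays, and for Esam 0.0105 with array weights, 0.0024 with embryo number as a covariate and 0.0349 with samples of 2 or more embryos. For the dim Slamf1 probe set 1425569_a_at they were 0.027 with array weights, 0.28 with the sex measure (Y-linked genes less Xist) as a covariate, 0.17 with samples of 2 or more embryos and 0.39 in the 4 arrays. Those 4 arrays held only 1 TFIIA nc/nc sample. Leaving out 1 array in turn gave −0.34 to 0.10 for the dim Kit probe set, −0.20 to 0.13 for Slamf1 1425569_a_at, −0.0239 to 0.26 for Slamf1 1425571_at and −0.32 to 0.21 for Esam. With the replicate number as a block, which left out wild-type replicate 4, 1 probe set and 0 members passed and 4 members had an unadjusted limma p under 0.05. The difference was then 0.10 for the dim Kit probe set and −0.0239 for Slamf1 1425571_at. Leaving out wild-type replicate 4 with no block gave the same values for both. Same-numbered samples deviated together at r = 0.364, −0.145 and 0.048, and TFIIA nc/nc replicates 2 and 3 correlated best with another number. Whether the numbers pair the samples cannot be told from these values. The causes were not tested.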

Other observations

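Of the lists of other cells, the genes with the smallest p had a limma adjusted p of 0.984 throughout. Among erythroid genes Tfrc, the transferrin receptor, read 7.47, 7.57 and 7.42 in TFIIA nc/nc, against 7.26, 6.71, 6.43 and 6.72 in wild type, and Epb42 and Hba-a1 differed by −0.28 and −0.33. Among mast cell genes the protease Cpa3 read 7.50, 7.26 and 7.09 in TFIIA nc/nc, against 6.96, 6.35, 6.46 and 6.89 in wild type, and Fcer1a and Tpsb2 differed by −0.24 and 0.14. For both Tfrc and Cpa3 the genotypes did not overlap, which held in that direction for 2.85% of all probe sets. Of the list genes named in the rest of this paragraph, Ahsg (higher) and Itgb3 (lower, as for 2.81% of all) did not overlap either. The adhesion molecule Vcam1, listed with macrophage genes, read 5.17, 5.64 and 5.14 in TFIIA nc/nc, against 5.40, 3.18, 2.64 and 2.07 in wild type, and the iron genes Hmox1 and Slc40a1 differed by 1.14 and 1.84. The hepatocyte genes Ahsg, Apoa1 and Krt18 differed by 0.47, 0.94 and −0.58, and the megakaryocyte genes Clec1b, Vwf and Itgb3 by 2.26, −0.40 and −0.23. Endothelial Plvap, Cdh5 and Stab2 differed by 1.78, 1.85 and 2.24, the Y-linked genes Kdm5d, Uty and Eif2s3y by −1.29, −0.85 and −1.67, and Cd8a of the lineage antigens by −0.20.

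Several members lie beside related genes in the gene order of GRCm38.p6, and these neighbours were looked at after the members' values were seen. Pdzk1ip1 lies next to Tal1, a master regulator of blood formation. Tal1 read 7.92, 8.03 and 8.07 in TFIIA nc/nc, against 8.08, 8.42, 8.28 and 8.12 in wild type, a difference of −0.21 (SE 0.15, limma adjusted p = 0.984), smaller than the −1.18 and −0.76 of Pdzk1ip1. As for Pdzk1ip1, all TFIIA nc/nc samples lay below all wild-type samples, here by a narrow margin (8.07 against 8.08). Over all probe sets 2.81% were apart in this direction. The next genes on that side, Stil and Cmpk1, differed by −0.22 and 0.02.

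Slamf1 and Cd48 lie in the SLAM cluster of chromosome 1. Its members Cd84, Ly9 and Cd244a differed by 0.09, 0.42 and 0.38, and Slamf6 and Slamf7 by −0.03 and −0.06. Of these only Cd84 lay above the array median on every array. Kit lies next to Kdr, the main VEGF receptor, whose level followed the endothelial arrays: it read 6.66, 7.87 and 3.26 in TFIIA nc/nc, against 7.39, 3.04, 3.89 and 3.20 in wild type, where Kit was lower in the same 3 arrays. Esam lies near Robo4, another endothelial and stem cell receptor, which read 5.87, 5.94 and 4.37 in TFIIA nc/nc, against 6.08, 5.11, 4.86 and 5.01 in wild type. Robo4 and Esam both had their lowest value in TFIIA nc/nc replicate 3 and their 3 highest in the arrays with high endothelial transcripts.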
